A study of Mus musculus with 6 samples.

Results

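The Tsc22d genes encode transcriptional regulators that share a conserved TSC box followed by a leucine zipper, through which they form dimers. The best known is Tsc22d3, called Gilz for glucocorticoid-induced leucine zipper, which corticosteroids induce in lymphocytes and in cells of the kidney collecting duct. In collecting duct cells Gilz restrains Raf-MEK-ERK signalling and, together with the kinase Sgk1, favours sodium channels at the cell surface. Tsc22d1 was found as a transcript that TGF-beta stimulates, and Tsc22d4 is a longer relative that can pair with other family members.

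All probe sets whose only annotated symbol begins with Tsc22d were taken. There were 3 among the 12422 probe sets of the array, 1 each for Tsc22d3, Tsc22d1 and Tsc22d4, which are 3 of the 8251 genes named there, and Tsc22d2 was not analysed here. The arrays measured RNA of mIMCD3 cells, a mouse inner medullary collecting duct line, after 1 h with aldosterone, an adrenal mineralocorticoid, or with vehicle. The experiment was done 3 times, each time with 1 aldosterone array and 1 vehicle array, so both groups held 3 arrays. The hormone dose is not given in the sources used here, all samples come from a single cell line, and the labels do not say whether the repeats were separate cultures. The p-values therefore measure the spread between these arrays, which may be technical, and the number of arrays limits the precision.

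Of 16 markers listed for collecting duct epithelium, 12 were on the array. Krt8, Krt18, Krt19, Cdh1, Cdh16, Epcam and Elf3, 7 in all, were bright enough to be tested, whereas Aqp2, Aqp4, Avpr2, Hsd11b2 and Gata3, which include the water channel and vasopressin receptor of the principal cell, were not. Of 21 markers of other cell types on the array, 9 were bright enough. Of all 8251 genes named on the array, 5640 were, so passing this brightness does not by itself mark a cell type. Deposited medians lay between 907 and 1003 except for that of the aldosterone array of replication 3, at 30.9, so each array was scaled to a common 2% trimmed mean of 2090. The values below are these scaled intensities in array units, which cannot be compared between probe sets. Log2 values were taken after adding 53.0 to each intensity, so fold changes of dim probe sets are understated.

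Corticosteroid receptors bind DNA at paired hexamers, so the starts of the family's genes were searched for these letters, and the windows shown are the ones that hold them. RefSeq windows from 250 bases before to 50 bases after a start (build GRCm38.p6) were matched for 2 of the 3 members, with 3 windows for Tsc22d3 and 5 for Tsc22d1. The hexamer AGAACA, or TGTTCT on the other strand, was present in 2 of these 8 windows, against 19% of the 32851 windows of all genes. The paired motif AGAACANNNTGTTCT, which reads the same on both strands and overlaps a hexamer at each end, was present in 0 of the 8 and in 3 windows of all genes (0.00913%). A window of Sgk1, 1 of the 6 matched for that gene, is 1 of those 3 and is shown because it holds the motif. The 2 windows of Per1, the other reference gene used below, held neither the hexamer nor the paired motif. Capitals mark each hexamer, and the sequences run 5′ to 3′ on the strand of the gene.
Tsc22d3, chrX:140600473-140600772, minus strand, hexamer starting 185 bases before the start: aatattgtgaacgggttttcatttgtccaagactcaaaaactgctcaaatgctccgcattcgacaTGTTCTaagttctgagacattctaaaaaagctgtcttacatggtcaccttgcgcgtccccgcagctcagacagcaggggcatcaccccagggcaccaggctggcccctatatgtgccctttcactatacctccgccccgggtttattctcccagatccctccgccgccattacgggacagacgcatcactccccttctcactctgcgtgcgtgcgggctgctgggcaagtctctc
Tsc22d1, chr14:76503976-76504275, plus strand, hexamer starting 137 bases before the start: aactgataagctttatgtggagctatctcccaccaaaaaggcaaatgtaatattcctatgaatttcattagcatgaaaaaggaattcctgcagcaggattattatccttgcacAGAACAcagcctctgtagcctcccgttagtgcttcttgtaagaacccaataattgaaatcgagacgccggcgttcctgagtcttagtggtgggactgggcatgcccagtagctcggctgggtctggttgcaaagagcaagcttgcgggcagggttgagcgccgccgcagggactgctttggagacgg
Sgk1, chr10:21993640-21993939, plus strand, hexamers starting 242, 189 and 180 bases before the start, the last 2 forming the paired motif: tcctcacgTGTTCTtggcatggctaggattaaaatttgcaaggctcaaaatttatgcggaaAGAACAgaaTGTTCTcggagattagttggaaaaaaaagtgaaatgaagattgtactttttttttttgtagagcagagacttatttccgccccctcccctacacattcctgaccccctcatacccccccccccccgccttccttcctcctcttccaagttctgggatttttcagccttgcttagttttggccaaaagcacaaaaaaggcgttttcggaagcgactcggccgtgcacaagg
These matches describe letters only. They do not show that a receptor binds there, and a window without a match says nothing of sites elsewhere in the gene.

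The probe set of Gilz was dim, and its mean over the arrays was lower after aldosterone, in 2 of the 3 replications. No detection calls were available, so whether it measures Gilz RNA in these cells is not settled here. Tsc22d3 read 113, 102 and 413 in the aldosterone arrays of replications 1, 2 and 3, against 240, 265 and 401 in the vehicle arrays. In replications 1 and 2 the aldosterone arrays were below every vehicle array, but the aldosterone array of replication 3 was above all of them, so the groups overlapped. Within replications the aldosterone value was 0.472, 0.385 and 1.03 times the vehicle value. The means were 210 ± 177 with aldosterone and 302 ± 86.4 with vehicle (SD, n = 3 each), a log2 difference of -0.60 or 0.658-fold on the log scale. An exact permutation test over arrays, two-sided, gave p = 0.4, where 3 against 3 arrays cannot go below 0.1. This test takes no account of the replications, so differences between them are part of its spread. The difference was within that spread, and neither the induction described for this gene in other corticosteroid-treated cells nor a decrease was resolved.

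**Figure D1:**
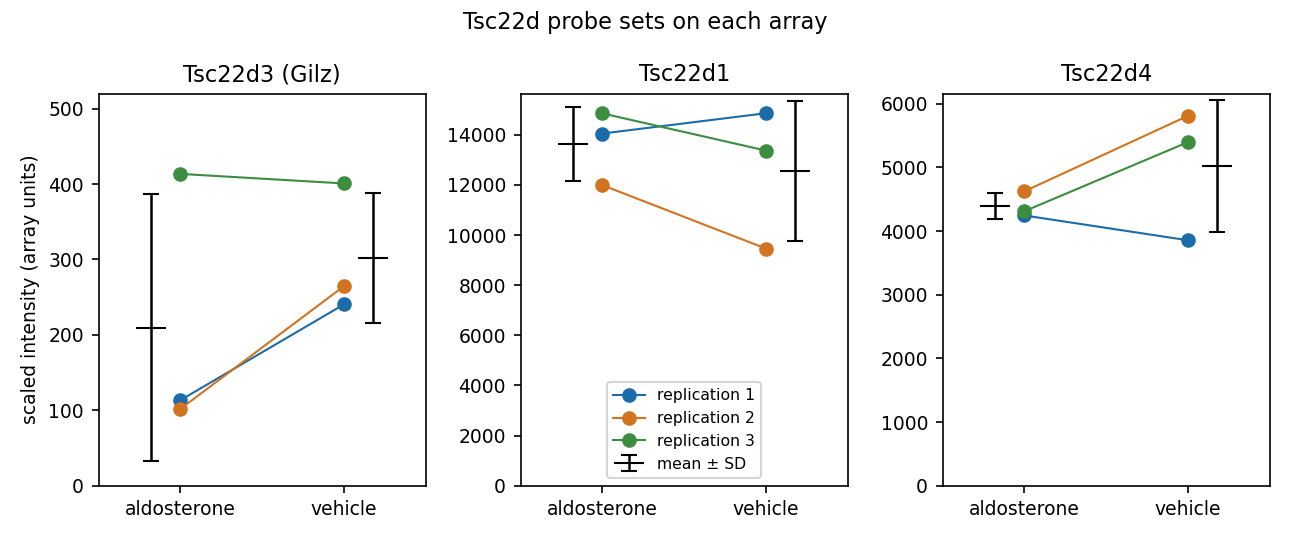
Scaled intensity (array units, linear axes from 0) of the 3 Tsc22d probe sets, with aldosterone at the left and vehicle at the right of each panel; lines join the arrays of a replication, and black bars give the mean ± SD of 3 arrays. Tsc22d3 lies at 413 and 401 in the arrays of replication 3 and at 102 to 265 in the others, while Tsc22d1 and Tsc22d4 stay within narrow relative ranges.

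Tsc22d3 fell under the brightness required for testing, a mean log2 value of 8.87 or an intensity of about 414, since its own mean was 8.14. When dim probe sets were included, limma gave a 95% interval of the log2 difference from -1.68 to 0.47, that is 0.311-fold to 1.39-fold (adjusted p = 0.9996 over 12422 probe sets). With the replication number as a block in that fit, the standard error of the difference was 0.418, against 0.487 without it. The adjusted p from limma was then 0.998. The size of this difference depended on single aldosterone arrays. Without that of replication 1 the log2 difference was -0.37, and without that of replication 2 it was -0.32. Without the one of replication 3 it was -1.12, with an exact permutation p of 0.1, the smallest that 2 against 3 arrays allow, and an adjusted p of 0.9999 in limma's fit of all probe sets. Without both arrays of 1 replication it was -0.50, -0.39 and -0.93 for replications 1, 2 and 3.

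By their means over the replications, dim probe sets as a class leaned the same way as Tsc22d3. Of the 4969 too dim to be tested, 3198 had a lower mean after aldosterone and 1771 a higher one, with a median log2 difference of -0.14. Their median intensity was 125, 102 and 96.7 in the aldosterone arrays of replications 1, 2 and 3, against 113, 148 and 108 in the vehicle arrays. It was thus higher after aldosterone in replication 1, where Tsc22d3 was lower, and lower in replication 3, where Tsc22d3 was not. Tsc22d3, at 113 and 102 in the aldosterone arrays of replications 1 and 2, lay near this median there and above it in the other arrays. A difference of at least 0.82 below vehicle in both replications 1 and 2, as Tsc22d3 had, was present in 125 dim probe sets (2.52%), and one of that size above vehicle in 76 (1.53%). The cutoff and the choice of replications were taken from the values of Tsc22d3, so these shares are a description only. The absolute log2 difference of Tsc22d3 was larger than that of 82.8% of dim probe sets. The part that this general shift plays in the value of Tsc22d3 was not tested. The aldosterone array of replication 3 was the one multiplied by 24.2, and its values are stored in steps of 2.42 scaled units. The part of the rescaling in its Tsc22d3 value was not tested.

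Tsc22d1 gave a strong signal on every array and differed little between treatments. It read 14050, 11989 and 14853 in the aldosterone arrays of replications 1, 2 and 3, against 14861, 9458 and 13369 in the vehicle arrays. The groups overlapped, the aldosterone array being the higher one in replications 2 and 3 and the lower one in replication 1. The means were 13631 ± 1478 with aldosterone and 12563 ± 2790 with vehicle (SD, n = 3 each). In limma's fit on group alone the log2 difference came to 0.14 (standard error 0.179, adjusted p = 0.9995). Its 95% interval ran from -0.26 to 0.54, or 0.832-fold to 1.45-fold. With the replication number as a block the interval ran from -0.08 to 0.35. The direction was not resolved, since leaving out the vehicle array of replication 2, the dimmest, turned the difference to -0.05. RefSeq lists several starts for Tsc22d1, which give long and short proteins, and a single probe set cannot tell these transcripts apart.

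Tsc22d4 was also bright enough to be tested, and its mean was slightly lower after aldosterone. It read 4246, 4626 and 4313 in the aldosterone arrays of replications 1, 2 and 3, against 3856, 5812 and 5399 in the vehicle arrays. All 3 aldosterone values lay between the lowest and the middle vehicle value, so the treated arrays differed less among themselves than the vehicle arrays did. The means were 4395 ± 203 with aldosterone and 5022 ± 1031 with vehicle (SD, n = 3 each). The log2 difference came to -0.17 (standard error 0.176) and had a 95% interval from -0.57 to 0.23, or 0.676-fold to 1.17-fold (limma, adjusted p = 0.9995). That fit was on group alone, and with the replication number as a block the interval ran from -0.45 to 0.11. The size of the difference depended on the vehicle arrays, with -0.35 without that of replication 1 and -0.05 without that of replication 2.

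Of the 2 tested members, 0 were called at an adjusted p under 0.05, nor were any of the 7453 tested probe sets (0%), also with the replication number as a block (0%). An unadjusted p under 0.05 was reached by 0 of the 2 members, against 72 probe sets (0.966%) in the fit on group alone and 250 (3.35%) with the block. Groups without overlap were found for 0 of the 3 members. Among all tested probe sets this occurred in 4.17%, and among those too dim to be tested in 8.85%. The absolute log2 difference of Tsc22d1 was larger than that of 61.4% of tested probe sets and that of Tsc22d4 larger than that of 69.4%. Counts over so few members distinguish the family from the background in neither direction.

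**Figure D2:**
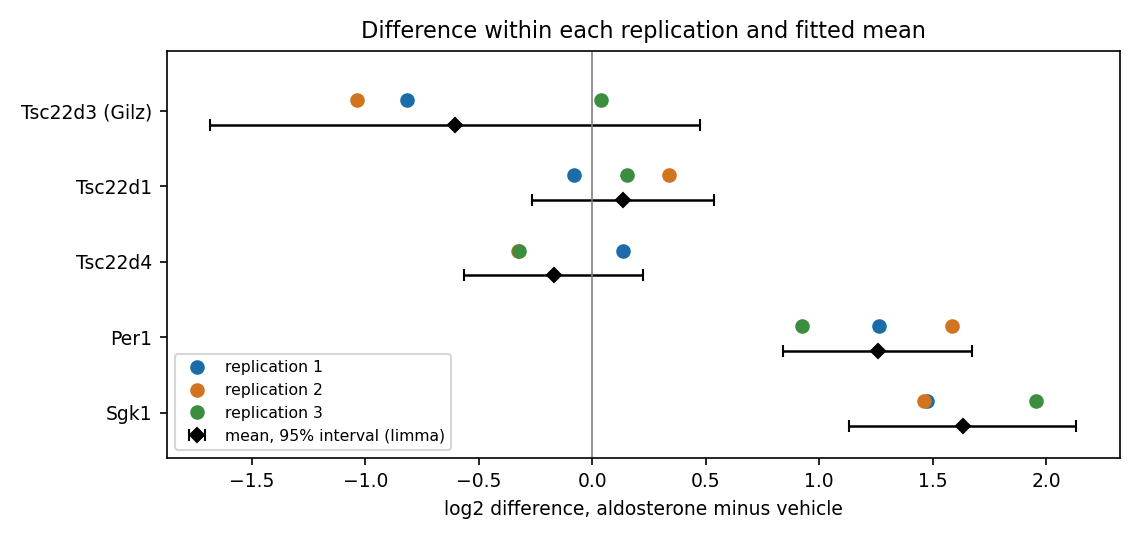
Log2 difference of aldosterone minus vehicle for the 3 Tsc22d probe sets and, for scale, for Per1 and Sgk1. Circles are the 3 replications. Diamonds are the mean with its 95% interval from limma's fit on group alone (for Tsc22d3 from the fit that includes dim probe sets). The intervals of the 3 members include 0, and the replications of Per1 and Sgk1 lie between 0.92 and 1.96.

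The members were set against Sgk1 and Per1, which were higher after aldosterone in 3 of 3 replications, through ratios within each array. Sgk1, the kinase that acts with Gilz on the sodium channel, had a log2 difference of 1.63, and the clock gene Per1 had 1.26. Neither was called, with an adjusted p of 0.242 for both in limma's fit on group alone. With the block it was 0.0509 for Sgk1 and 0.0722 for Per1. Both were taken because of their large differences in these arrays, so the comparisons are descriptions of these data and no independent evidence. The log2 ratio of Tsc22d1 to Sgk1 shifted by -1.50 and that of Tsc22d4 to Sgk1 by -1.80, lower after aldosterone in 3 of 3 replications each. Against Per1 the shifts were -1.12 for Tsc22d1 and -1.43 for Tsc22d4, again lower in 3 of 3. The ratio of Tsc22d1 to Tsc22d4 shifted by 0.31 and was higher in 2 of 3 replications. By an exact permutation test, two-sided, p was 0.6 for the ratio between the members, also after adjustment over the 5 pairs. With 3 against 3 arrays no pair could go below 0.1, so these tests could not pass the threshold, and the 4 ratios to Sgk1 or Per1 are given as shifts only.

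Between the repeats of the experiment each member ranged further than between the treatments, although a range over 3 means tends to exceed a difference of 2. Tsc22d1 was lowest in replication 2 with either treatment, Tsc22d3 was highest in replication 3 with either treatment, and Tsc22d4 averaged lowest in replication 1. The highest and lowest replication means lay 1.36-fold apart for Tsc22d1 (limma's F test, adjusted p = 0.0649) and 1.28-fold apart for Tsc22d4 (adjusted p = 0.271). For Tsc22d3 they lay 2.08-fold apart, with an adjusted p of 0.364 when dim probe sets were included. Of the 2 tested members 0 were called, against 798 of 7453 probe sets (10.7%). The count of probe sets was 71 without the intensity trend in the fit, and without the aldosterone arrays of replications 1 and 3 in turn it was 378 and 367. Without the vehicle arrays of replications 1, 2 and 3 in turn it was 332, 467 and 353. Whether Tsc22d1 passed depended on the setting. Its adjusted p was 0.0499 when only brighter probe sets were tested and 0.0296 without the aldosterone array of replication 2. It was 0.167 with arrays scaled on the median, 0.223 without the intensity trend and 0.287 without the vehicle array of replication 2, where the span was 0.27 on the log2 scale, against 0.44 with all arrays.

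Across the 6 arrays, the tested genes whose log2 values followed Tsc22d1 most closely were Gpam, an acyltransferase of triglyceride synthesis (Pearson's r = 0.997), Sirt3, a mitochondrial deacetylase (0.991), the kinase Map3k1 (0.990), the transcription factor Mecom (0.989) and Cops2, a subunit of the COP9 signalosome (0.989). For Tsc22d4 they were Auh (0.990), the opsin gene Opn1mw (0.987), Rgl2 (0.981), the collagen gene Col6a1 (0.970) and the transcription factor Cebpa (0.954). These are the highest of 5640 genes over 6 arrays that share their scaling and their replications, and are given as a description. The range of Gpam was much narrower than that of Tsc22d1, with an SD over the arrays of 0.077 against 0.25 on the log2 scale.

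Genes that work with the family were described by 5 lists, each gene counted once by its brightest probe set. In every list 0 tested members were called at an adjusted p under 0.05 in either direction, with or without the block. The first list held partners of Gilz in MAP kinase and sodium channel control, with 7 of 16 genes tested, 5 higher and 2 lower by sign, and a median log2 difference of 0.13. Beside Sgk1, it held Map2k1, which encodes the ERK-activating kinase MEK1, at 0.39 (3001 ± 394 with aldosterone and 2304 ± 511 with vehicle, SD, n = 3 each, unadjusted p = 0.0849). The kinase Araf was at -0.27 and Nras, a Ras protein upstream of it, at 0.13. The median over all 5640 tested genes was -0.002, with 49.4% higher and 50.6% lower by sign.

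The second list held transcription factors that Gilz binds or restrains or that drive it, with 11 of 15 tested, 7 higher and 4 lower, and a median of 0.03. Its smallest p-values belonged to Cebpd at 0.87, Cebpb at 0.29 and Nfkb2 at -0.17. Rela, the NF-kB subunit that Gilz binds, was at 0.07, and Foxo3, a factor that drives Gilz transcription, at 0.03. The adipogenic receptor gene Pparg, which Gilz represses, was too dim to be tested.

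The third list held kinases and transporters of cell volume control, in which long Tsc22d proteins take part, with 10 of 14 tested, 4 higher and 6 lower, and a median of -0.03. By their brightest probe sets its members ranged narrowly, from -0.17 for the potassium-chloride cotransporter Slc12a4 to 0.19 for the pseudokinase Nrbp2. Nrbp1, the pseudokinase that binds Tsc22d proteins, had 3713 ± 191 with aldosterone and 3680 ± 77.1 with vehicle, a log2 difference of 0.01. The kinase Wnk1 was at -0.07 in its brightest probe set. Its other tested probe sets were at 0.40 (standard error 0.667) and -0.01 (standard error 0.538).

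TGF-beta signalling, for which Tsc22d1 is named, had 15 of 20 genes tested, 8 higher and 7 lower, and a median of 0.01. Smad3, a transducer of TGF-beta, was at 0.52 (597 ± 54.5 with aldosterone and 403 ± 73.7 with vehicle, SD, n = 3 each, unadjusted p = 0.0996), higher in 3 of 3 replications. Its inhibitor Skil was at 0.60 and higher in 2 of 3, and the matrix gene Ccn2 was at 0.91. The receptor genes Tgfbr1 and Tgfbr2 were too dim to be tested.

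Other genes that corticosteroids induce in many cells had 16 of 20 tested, 13 higher and 3 lower, and a median of 0.22. Of the 16, 9 were higher in every replication and 0 were lower in every one, against 10.5% and 11.7% of all tested genes. An unadjusted p under 0.05 in limma's fit on group alone was reached by 5 of the 16, against 0.966% of all tested probe sets. These were Sgk1, Per1, Cebpd, Edn1 and Dusp1, all higher. Not every classical target reached this p-value. Among those that did not, Fkbp5 was at -0.005, Klf9 at 0.16 and the metallothionein gene Mt2 at 0.19, the last higher in every replication. Several of these genes were picked with their values in these arrays known, and so the list gives no independent evidence. The probe set of Gilz, at -0.60 with overlapping groups, did not share the sign of most tested genes of this list. It was itself too dim to be tested. So was every probe set of Rgs2 at -0.59, Tat at -0.27, Zbtb16 at -0.05 and -0.22, and Pdk4 at 0.07. Dim probe sets of list genes that also had a tested one went both ways. Those of Klf9 and Glul were at 0.65 and 0.15, and those of Angptl4 at -0.39, -0.60 and 0.20.

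**Figure D3:**
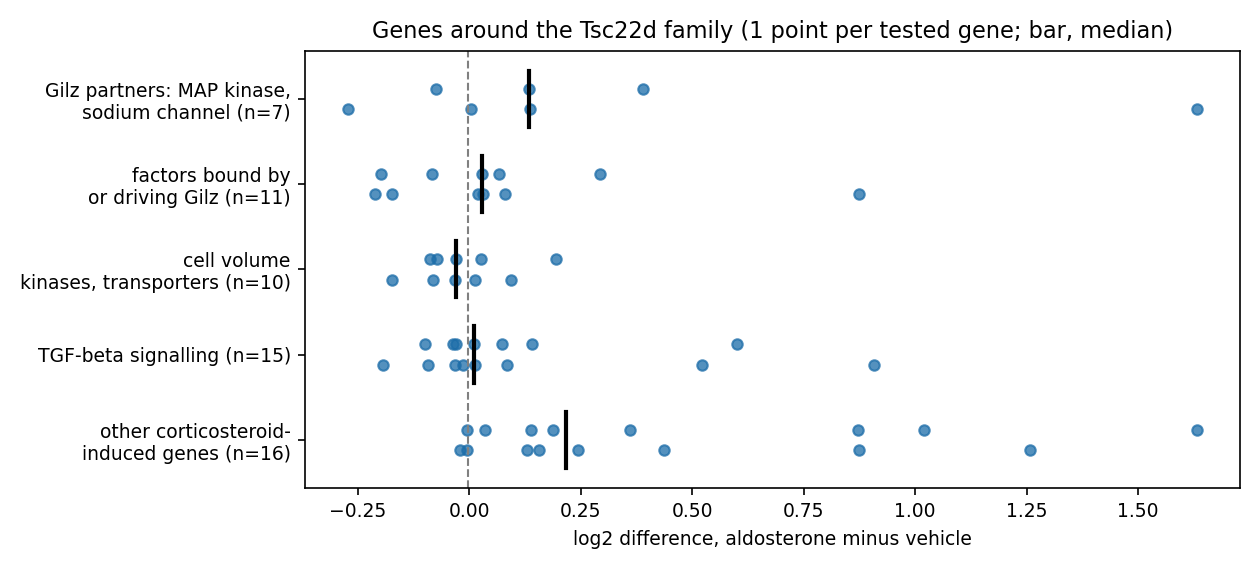
Log2 difference of aldosterone minus vehicle for each tested gene of the 5 lists (1 point per gene, black bar the median, dashed line the median of all tested genes at -0.002). The medians lie between -0.03 for the genes of cell volume control and 0.22 for other corticosteroid-induced genes, and Sgk1 is the rightmost point of both lists that hold it.

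The values of the family moved little with the way the data were handled, except for the arrays left out. Over the other settings, the log2 difference ranged from -0.68 to -0.47 for Tsc22d3, from 0.14 to 0.16 for Tsc22d1 and from -0.19 to -0.14 for Tsc22d4. The filters, the block and the intensity trend cannot move a mean difference, so these ranges come from the pseudocounts and scalings. Leaving out an array or a replication widened these ranges to between -1.12 and -0.32 for Tsc22d3, between -0.05 and 0.27 for Tsc22d1 and between -0.35 and -0.05 for Tsc22d4.

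**Figure D4:**
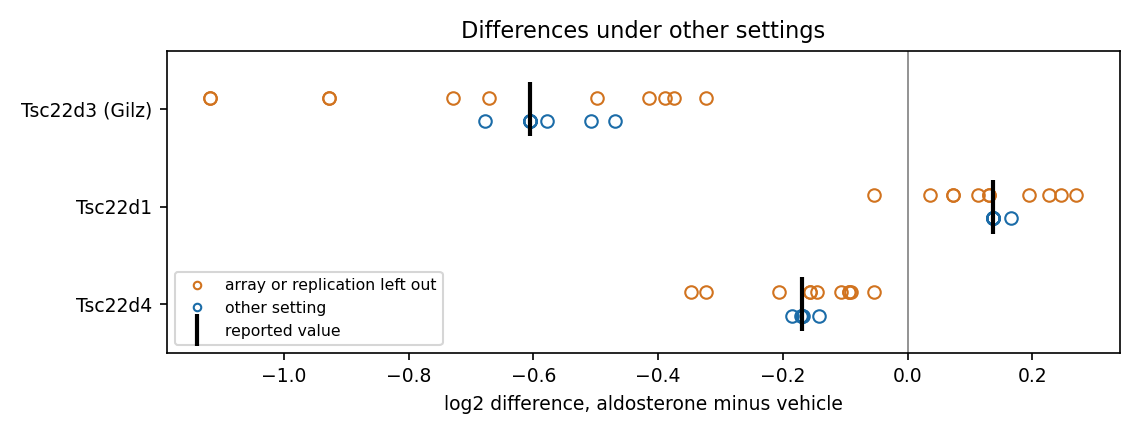
Log2 difference of aldosterone minus vehicle for the 3 Tsc22d probe sets as reported (black bars), with arrays or replications left out (orange circles) and under other scalings, pseudocounts, filters and fits (blue circles). Tsc22d3 stays below 0 from -1.12 to -0.32, Tsc22d4 stays below 0, and Tsc22d1 crosses to -0.05 in 1 setting.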

How the data were processed

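RNA of mIMCD3 cells was measured on 6 oligonucleotide arrays, 3 with aldosterone and 3 with vehicle. The deposited values were linear intensities, 1 per probe set and array; the labels do not describe scanning, summarisation or background steps. As the 2% trimmed means differed by over 10%, arrays were multiplied by 0.838 to 0.840, and the aldosterone array of replication 3 by 24.2. Values became log2(intensity + 53.0), the addend being the 10th percentile, and probe sets with a mean at or above the 40th percentile were tested (7453 of 12422). Symbols came from the array's annotation, checked through Entrez identifiers (0 changed); 10833 probe sets had 1 symbol, 396 several and 1193 none.

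Groups and replications were tested by limma (version 3.58.1, R 4.3.3; lmFit, eBayes with an intensity trend, two-sided, Benjamini-Hochberg over all tested probe sets), tested on simulated data; figures used Python 3.11.15. The replication numbers paired the arrays: a replication is 1 experiment in the labels, and same-numbered arrays' deviations from group means correlated at 0.377, 0.387 and 0.471. The block was an alternative beside other pseudocounts, filters, scalings and left-out arrays. Members and lists were chosen with earlier results of these data known; the text names all members, the 3 list genes of smallest p, and others chosen after their values were seen, among them Nras, Rela, Foxo3, Nrbp1, Fkbp5, Klf9, Mt2, Edn1 and Dusp1.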

Additional observations from a re-analysis of the deposited data

How the results depend on the processing

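The log2 difference of Tsc22d1 kept its direction in 19 of 20 alternatives. It was -0.054 without the vehicle array of replication 2 (-0.054 to 0.27 over left-out arrays or replications). Tsc22d3 and Tsc22d4 kept theirs in 20 of 20. The block, the filters and the intensity trend leave a mean difference unchanged, so those alternatives could not turn a direction. Fits joining no filter with a left-out array or replication repeat values already counted. No member was called in any alternative. For Tsc22d3 most alternatives gave only the exact permutation test, which cannot go below 0.1, so a call was impossible there. With the replicate block the differences stayed at 0.14 for Tsc22d1 and -0.17 for Tsc22d4, with standard errors of 0.095 and 0.123 (adjusted p = 0.998 in limma for both); it changed no call. The span of 0.44 of Tsc22d1 between replications was called with the filter at the 60th percentile, where fewer probe sets were tested, and without the aldosterone array of replication 2 (0.61; 0.27 to 0.61 over left-out arrays). The count of 0 probe sets called for aldosterone by limma (72 at an unadjusted p under 0.05) was 0 to 1 over left-out arrays and replications and 6, none of them Tsc22d, with the replicate block and no filter. The count of 798 between replications was 71 without the intensity trend and 332 to 730 over left-out arrays; the causes were not tested. It was 583 with treatment as a term. That fit and those combining no filter with the replicate block or with replication 3 left out were added after the data were seen.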
